A study of Mus musculus with 6 samples.

Results

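The genes described here encode 10 surface and extracellular matrix proteins made by oligodendrocyte precursor cells or by the cells around them: the growth factor receptor Pdgfra and its ligand Pdgfa, the chondroitin sulphate proteoglycans Cspg4, Cspg5, Vcan and Ncan, the matrix glycoproteins Tnr and Matn4, the secreted protein C1ql1 and the membrane protein Lhfpl3. They were chosen by name. Assembled transcripts of at least 200 exonic bases were assigned, by position in the GENCODE vM21 annotation of mm10, to the mouse gene whose exons they overlapped most on its strand. Those without a strand were assigned by overlap alone. All 10 had an assembled transcript in each library, out of 17245 annotated genes with an assembled base in any library, and all 10 were among the 12894 genes that could be tested. The libraries were made from polyadenylated RNA of the ventral portion of the lumbar cord, dissected from C57BL/6 mice aged 5 weeks. A group of 3 libraries came from wild-type mice (WT) and a group of 3 from mice labelled Gde2KO, which lack GDE2, the product of Gdpd5, a membrane enzyme that cuts the glycosylphosphatidylinositol anchor of surface proteins. No treatment was given to either group in the labels. The labels do not say how the Gde2KO allele was made, which sex the mice had or whether a library is 1 mouse, so the p-values measure the spread between these libraries only.

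Oligodendrocyte precursors are dividing glial cells that persist in the adult cord and give rise to myelin-forming oligodendrocytes. Platelet-derived growth factor A, made by neurons and astrocytes, acts on the receptor PDGFRα on the precursor surface and keeps the cells proliferating and alive. Precursors and astrocytes also build the chondroitin sulphate matrix of the cord, in which lecticans such as versican and neurocan bind hyaluronan and are held together by tenascin-R around neurons and at nodes of Ranvier.

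The coding sequence of several of these genes is spliced in alternative ways, and the junctions below tell the forms apart in the libraries. They are from the GENCODE vM21 transcripts on GRCm38, 5′ to 3′ on the strand of the gene. In Vcan, on the minus strand of chromosome 13, exon 7 (chr13:89702918-89705797, 2880 bases) and exon 8 (chr13:89688285-89693501, 5217 bases) carry the attachment sites for chondroitin sulphate chains. The V0 form holds both exons, V1 holds exon 8, V2 holds exon 7 and V3 neither. The next lines show the junctions seen in the libraries, with the first bases after the junction in capitals.
Vcan exon 6 to exon 7: cctactgctttaaacCTAAACAGAATATAT
Vcan exon 7 to exon 9: gagaaaacaagacagGACCTGATCTCTGCA
Vcan exon 8 to exon 9: cagtttacctaccagGACCTGATCTCTGCA

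In Cspg5, on the plus strand, exon 4 has a longer form in which 81 further coding bases (chr9:110256221-110256301) follow before the last exon. The capitals mark the extension, which keeps the reading frame, since its length is a multiple of the codon length.
Cspg5 with the extension: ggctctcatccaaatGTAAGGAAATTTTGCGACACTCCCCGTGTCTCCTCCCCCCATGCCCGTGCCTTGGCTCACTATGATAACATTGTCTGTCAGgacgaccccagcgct
Cspg5 without the extension: ggctctcatccaaatgacgaccccagcgct

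In Lhfpl3, on the plus strand, a 48-base exon (chr5:23221865-23221912) holds a stop codon of its own. From the junction through the stop there are 17 coding bases with the exon and 29 without it, so the short endings differ. In Pdgfa, on the minus strand, exon 6 (chr5:138978622-138978690, 69 bases) encodes the basic retention motif that holds the ligand on the cell surface and matrix. In the lines below the capitals mark the coding bases from the junction to the stop codon.
Lhfpl3 with the 48-base exon: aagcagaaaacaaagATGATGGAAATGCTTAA
Lhfpl3 without the 48-base exon: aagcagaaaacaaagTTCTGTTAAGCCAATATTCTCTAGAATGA
Pdgfa with exon 6: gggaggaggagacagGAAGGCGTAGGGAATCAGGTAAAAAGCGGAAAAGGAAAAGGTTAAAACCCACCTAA
Pdgfa without exon 6: gggaggaggagacagATGTGAGGTGA

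Each library held 31899 to 33791 assembled transcripts, the lowest number in Gde2KO replicate 3. Gdpd5, the targeted gene, stood at 5.38, 6.54 and 5.95 FPKM in WT replicates 1, 2 and 3 and at 1.24, 1.20 and 0.946 FPKM in Gde2KO replicates 1, 2 and 3 (adjusted p = 0.00526, limma with Benjamini-Hochberg adjustment). FPKM is the number of fragments scaled to transcript length and library size, so levels are per length and can be compared between genes. Gde2KO replicate 1 was the only library with the chromosome Y gene Ddx3y, at 21.7 FPKM, and the only library with Xist listed at 0. Sex and genotype could not be separated with 1 such library. Values without it are given for Pdgfra and for the fibroblast, Schwann cell and other chondroitin sulphate proteoglycan lists. All 11 precursor markers, 4 of them outside the 10 genes (Susd5, Neu4, Olig2 and Sox10), were present in all 6 libraries, at 2.15 to 72.0 FPKM. The highest of these values was that of Sox10 in WT replicate 2, a gene that is also on the Schwann cell list. The estimated read depth over the 10 genes ran from 17.1 to 248 reads per base, and the authors' 95% interval for the leading transcript was ±2.17% to ±13.4% of its value. In tissue RNA, fewer cells of a type and less RNA per cell cannot be told apart.

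Cspg5 was the most abundant of the 10, at a mean of 39.4 FPKM over the 6 libraries and above every other member in all 6. Pdgfa at 20.8, Lhfpl3 at 20.3, Tnr at 19.7, Ncan at 19.3 and C1ql1 at 16.6 FPKM followed. Neighbours among these 5 overlapped in range, so their order is not fixed. Pdgfra came next at 9.13 FPKM, below C1ql1 and above Vcan in all 6 libraries. Vcan at 5.19 FPKM was above Matn4 at 4.19 FPKM in 6 of 6 libraries although their ranges overlapped, and Matn4 and Cspg4, at 3.58 FPKM, did not separate. WT replicate 1 gave the lowest of the 6 values for 5 of the 10 genes.

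**Figure D1:**
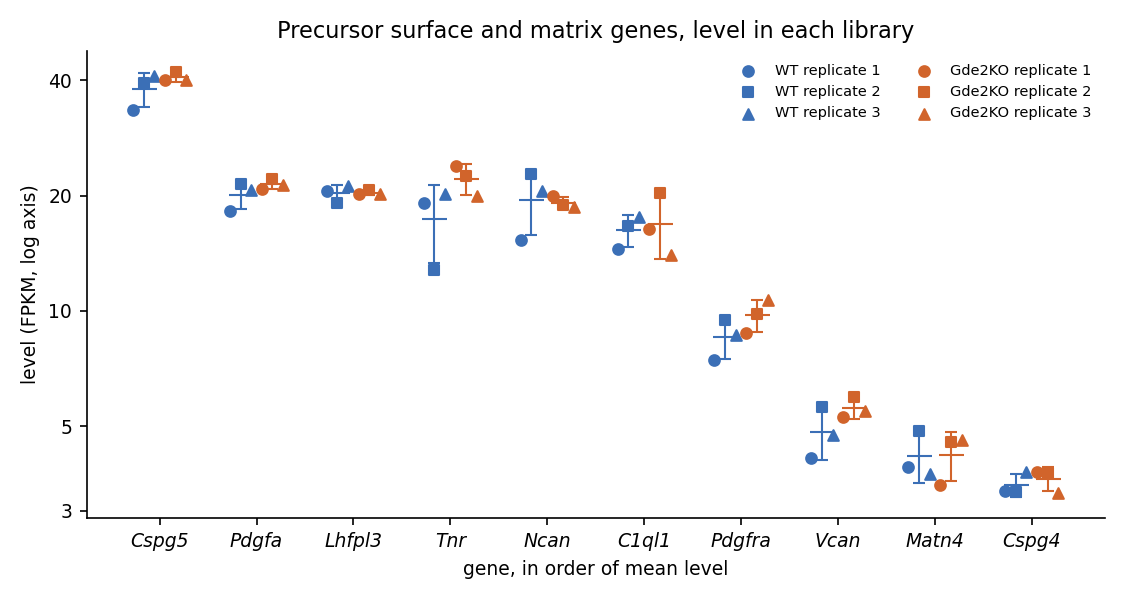
Level of each gene (FPKM, log axis) in the 3 WT (blue) and 3 Gde2KO (orange) libraries, with replicates by symbol and the group mean ± SD as a dash with bars. The groups overlap for all 10 genes, and the low WT replicate 2 value of Tnr, at 12.8 FPKM, stands away from its group.

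The comparison of Gde2KO with WT bears on the study's question of how GDE2 affects oligodendrocyte maturation, here at the level of the precursors' surface and matrix. None of the 10 genes passed an adjusted p of 0.05 (limma on log2(FPKM + 0.1), adjusted p 0.882 to 0.994), against 0.116% of all genes tested, or 15 of 12894. Of all genes tested, 0.0388% passed with higher and 0.0776% with lower values in Gde2KO. That balance turned when any 1 WT library was left out and held when any 1 Gde2KO library was left out. None of the 10 had an unadjusted p under 0.05, against 3.91% of all genes. The groups overlapped for all 10, whereas they did not overlap for 10.9% of all genes, 5.06% with higher and 5.79% with lower values in Gde2KO. The mean was higher in Gde2KO for 9 genes and lower for 1, with a median log2 difference of 0.07, beside 6457 higher and 6437 lower and a median of 0.00 over all genes. That split depended on single libraries and on scaling. Besides Ncan, C1ql1 (-0.037) and Matn4 (-0.029) were lower without WT replicate 1, and Matn4 (-0.02) and Lhfpl3 (-0.028) without normalization. For Lhfpl3 the 95% interval of the fold ran from 0.906 to 1.11, for Pdgfa from 0.929 to 1.22 and for Cspg4 from 0.889 to 1.20, while Ncan (0.766 to 1.29), C1ql1 (0.790 to 1.34), Matn4 (0.778 to 1.31) and Tnr (0.934 to 1.80) were known less closely.

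**Figure D2:**
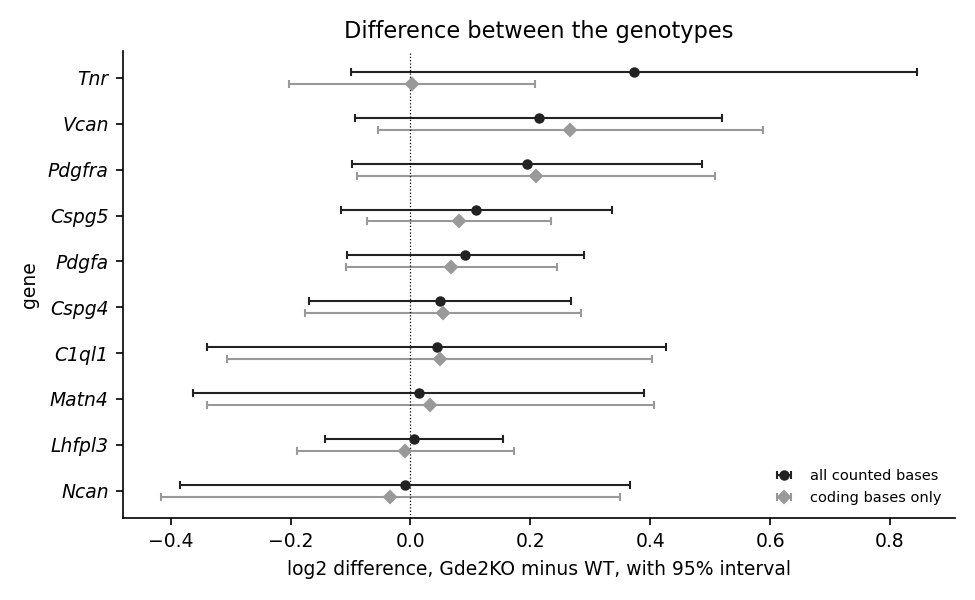
Log2 difference between Gde2KO and WT with its 95% interval from limma, over all counted bases (black circles) and over coding bases only (grey diamonds). All intervals include 0, and the difference of Tnr goes from 0.37 to 0.00 when its coding bases alone are counted.

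Pdgfra (chr5:75152292-75198215, plus strand), the receptor that defines precursors, stood at 7.44, 9.45 and 8.67 FPKM in the WT libraries and at 8.76, 9.83 and 10.7 FPKM in the Gde2KO libraries. The highest value was in Gde2KO replicate 3 and the lowest in WT replicate 1, and the groups overlapped. The means were 8.52 ± 1.02 and 9.75 ± 0.944 FPKM (SD, n = 3 each), a 1.15-fold ratio with an interval of 0.935 to 1.40 (limma, adjusted p = 0.882). The log2 difference was 0.20, and it was 0.27 without Gde2KO replicate 1 and 0.10 without WT replicate 1. Pdgfra is also expressed by fibroblasts of the meninges and vessels. All 10 tested genes of the fibroblast and meningeal list were lower in Gde2KO by mean, with a median log2 difference of -0.37, none passing, and a median of -0.02 without Gde2KO replicate 1. Their summed level was 122 to 161 FPKM in WT against 76.0 to 144 FPKM in Gde2KO, lowest in replicate 1. No fibroblast marker of the list was at 0, and the part of these cells in the Pdgfra value was not tested.

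Transcripts of Pdgfra began at 4 different first exons that join the same second exon. The other first exons lie 1241, 2784 and 3892 bases downstream of the first, counted between their splice donors. The share of transcript FPKM that used the first of them was 100%, 82.1% and 75.2% in the WT libraries and 61.4%, 34.5% and 49.6% in the Gde2KO libraries. All 3 Gde2KO shares lay below all 3 WT shares, as for 3.7% of the 2998 genes with more than 1 first exon that could be compared (7.17% in either direction). The mean difference was -37.3 percentage points, and 142 of those genes, or 4.74%, differed by at least as much. This share was singled out after its values were seen and is a description with no test. The second of the first exons took 65.5% in Gde2KO replicate 2, 16.8% in replicate 1 and 26.6% in replicate 3, against 10.5% in WT replicate 3 and 0% in the other WT libraries. A first exon at 0% can be a failed assembly, and WT replicate 1 held only 1 assembled Pdgfra transcript. In Gde2KO replicate 3 the gene was assembled in pieces that break after exon 7, so its first exons were quantified on fragments of the transcript. The annotated start codon lies downstream of all 4 first exons.

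Pdgfa (chr5:138976014-138997370, minus strand), the ligand, stood at 18.2, 21.5 and 20.7 FPKM in WT against 20.8, 22.1 and 21.3 FPKM in Gde2KO. WT replicate 1 was the lowest and the groups overlapped. The means were 20.1 ± 1.71 and 21.4 ± 0.635 FPKM (SD, n = 3 each). Exon 6, the retention exon shown above, was listed at 0 in all 6 libraries while the exons shared by all forms stood at 20.59 to 22.96 FPKM as deposited, so the assembled Pdgfa was the form without the motif. Transcripts with a leader exon further upstream were present at 7.46, 6.14 and 8.38 FPKM in WT and at 5.42 FPKM in Gde2KO replicate 1. They were listed at 0 in Gde2KO replicates 2 and 3. Their structure was not the same in both groups. In WT they had 7 exons, whereas the transcript of Gde2KO replicate 1 had 6 and left out the annotated exon 1, which holds coding bases. As a share of Pdgfa FPKM, transcripts with the upstream leader were 36.2%, 26.7% and 38.1% in WT against 23.9%, 0% and 0% in Gde2KO. These shares too were singled out after their values were seen, the first-exon comparison used for Pdgfra covers only first introns that overlap each other and so leaves this form out in WT, and a transcript can be listed at 0 when its assembly fails.

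Of the 7 PDGF ligand and receptor genes, 5 were higher and 2 lower in Gde2KO by mean, with none passing the test and a median log2 difference of 0.05. Pdgfd, a further PDGF ligand that acts on PDGFRβ, had the smallest unadjusted p of the list, at 9.04, 9.05 and 12.1 FPKM in WT against 14.3, 15.8 and 14.4 FPKM in Gde2KO. All 3 Gde2KO values lay above all WT values, as for 5.06% of all genes tested, and the log2 difference of 0.57 did not pass (limma, unadjusted p = 0.00552, adjusted p = 0.882). Pdgfrb, the gene of that receptor, named after its values were seen, went the other way. It stood at 6.46, 6.06 and 6.42 FPKM in WT against 5.05, 5.51 and 3.54 FPKM in Gde2KO (limma, unadjusted p = 0.04185, adjusted p = 0.882). Its Gde2KO values all lay below its WT values, as for 5.79% of all genes tested.

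Cspg4 (chr9:56865033-56899870, plus strand) encodes NG2, the membrane proteoglycan that gives precursors their other name of NG2 glia. It stood at 3.38, 3.37 and 3.79 FPKM in WT against 3.80, 3.78 and 3.33 FPKM in Gde2KO. Values near 3.8 and near 3.3 occurred in both groups. The means were 3.51 ± 0.242 and 3.64 ± 0.263 FPKM (SD, n = 3 each; limma, adjusted p = 0.913). Each library held a single transcript of 10 exons for it. Cspg4 is also a marker of pericytes and smooth muscle. Of the 11 tested mural genes, 5 were higher and 6 lower, none passing, and their summed level was 119 to 134 FPKM in WT against 111 to 121 FPKM in Gde2KO, with none at 0. Their part in the Cspg4 value was not tested. Vtn, the gene of smallest p in the mural list, had a log2 difference of -0.30 (limma, adjusted p = 0.882).

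Cspg5 (chr9:110243783-110262576, plus strand) encodes neuroglycan C, a transmembrane proteoglycan with an epidermal growth factor-like domain that neurons also make. It stood at 33.5, 39.3 and 41.0 FPKM in WT against 40.1, 42.1 and 40.2 FPKM in Gde2KO. WT replicate 1 was low and the rest overlapped. In that library the last exon was assembled over only 20 bases, against 452 to 515 bases in the other 5. Over the bases assembled in all 6 libraries the values became 41.6, 39.1 and 41.1 FPKM in WT against 41.2, 41.8 and 41.8 FPKM in Gde2KO, a 1.03-fold ratio with an interval of 0.925 to 1.14. Over coding bases only, the values were 37.8, 38.8 and 40.7 FPKM in WT against 40.9, 41.5 and 41.4 FPKM in Gde2KO. The groups then did not overlap, as for 11.0% of the genes tested that way, and the 1.06-fold ratio (interval 0.951 to 1.18) did not pass (limma, adjusted p = 0.901).

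The 81-base extension of Cspg5 was assembled in every library. Transcripts with it made up 40.3%, 29.7% and 27.3% of Cspg5 FPKM in WT against 30.1%, 23.7% and 20.3% in Gde2KO, or 32.4 ± 6.93% and 24.7 ± 4.94% (SD, n = 3 each). The Gde2KO share of replicate 1 lay inside the WT range. This exon was added to the tests after its values were seen. As a ratio to the constitutive exons, the extension differed by -12.4 percentage points (p = 0.3, exact permutation test, two-sided, p = 0.875 after Benjamini-Hochberg adjustment over 7 alternative exons). The difference was -3.76 percentage points without WT replicate 1, where the last exon was largely unassembled. With 3 libraries against 3 this permutation test cannot go below 0.10.

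Vcan (chr13:89655312-89742509, minus strand), the lectican versican, stood at 4.12, 5.59 and 4.74 FPKM in WT against 5.28, 5.95 and 5.48 FPKM in Gde2KO. The highest value was in Gde2KO replicate 2 and the lowest in WT replicate 1, with WT replicate 2 inside the Gde2KO range. The means were 4.82 ± 0.739 and 5.57 ± 0.342 FPKM (SD, n = 3 each), a 1.16-fold ratio with an interval of 0.938 to 1.43 (limma, adjusted p = 0.882). The log2 difference was 0.21, and over left-out libraries it ran from 0.11 without WT replicate 1 to 0.33 without WT replicate 2, with no pass after adjustment in either (limma).

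The libraries held mainly the V2 form of Vcan. The junction from exon 7 to exon 9 was assembled in 6 of 6 libraries. The junctions from exon 7 to 8, from 6 to 8 and from 6 to 9, which mark V0, V1 and V3, were assembled in 0 libraries. A single transcript with the junction from exon 8 to exon 9 was present in WT replicate 1, at 0.972 FPKM. Exon 7 stood at 4.69, 6.90 and 5.81 FPKM in WT against 6.60, 7.08 and 6.79 FPKM in Gde2KO, as deposited. Exon 8 stood at 0.619, 0.242 and 0.684 FPKM in WT against 0.838 and 1.23 FPKM in Gde2KO replicates 1 and 2, and was listed at 0 in replicate 3. Where present, exon 8 was assembled in fragments over 8.68% to 54.3% of its bases, so these averages include unassembled stretches. As a percentage of the constitutive exons, exon 8 was 9.70 ± 5.38% in WT against 11.1 ± 10.4% in Gde2KO (SD, n = 3 each; exact permutation test, two-sided, p = 0.9).

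**Figure D3:**
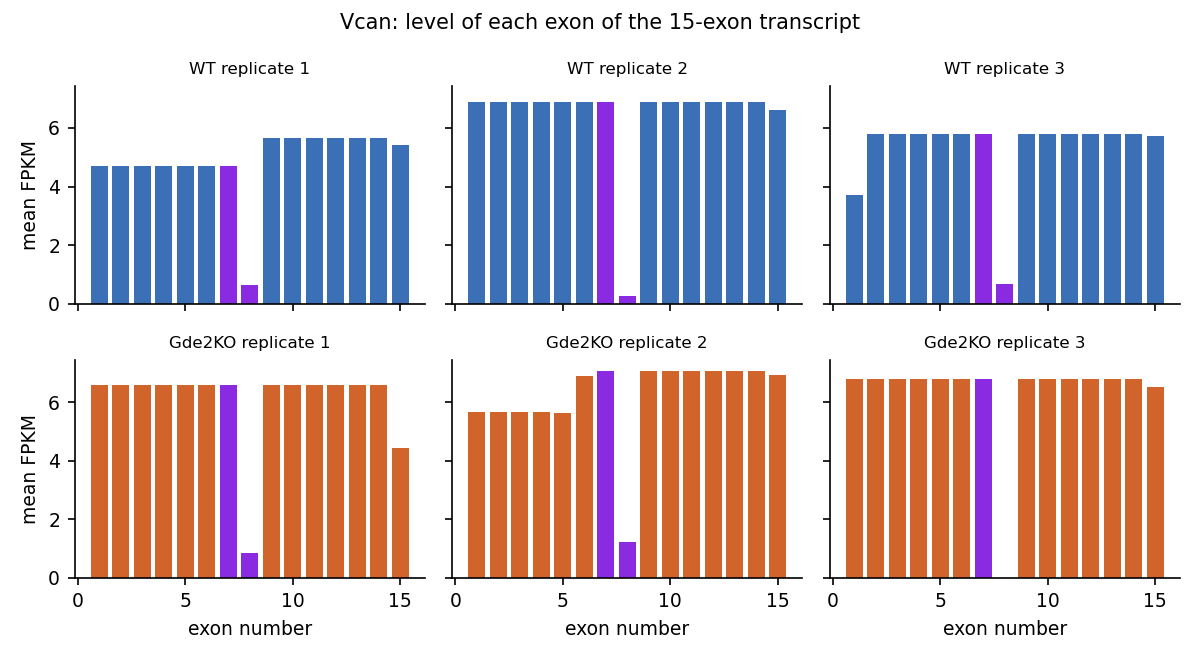
Mean FPKM as deposited (vertical axis) over each exon of the 15-exon Vcan transcript (horizontal axis, exon number) in the 3 WT (blue, top) and 3 Gde2KO (orange, bottom) libraries, with the chondroitin sulphate attachment exons 7 and 8 in purple. Exon 7 stands at 4.69 to 7.08 FPKM, and exon 8 stays at or below 1.23 FPKM.

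Ncan (chr8:70093085-70120873, minus strand), the lectican neurocan, stood at 15.3, 22.7 and 20.6 FPKM in WT against 19.9, 18.9 and 18.6 FPKM in Gde2KO. The WT libraries held both the lowest and the highest value, and the Gde2KO libraries lay between them. The means were 19.5 ± 3.80 and 19.2 ± 0.665 FPKM (SD, n = 3 each), a ratio of 0.994 with an interval of 0.766 to 1.29. Ncan was the one gene of the 10 with a lower mean in Gde2KO, and the sign turned when WT replicate 2 or 3 or Gde2KO replicate 3 was left out.

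Tnr (chr1:159523769-159931729, plus strand), the gene of tenascin-R, had the largest log2 difference of the 10, at 0.37. It stood at 19.1, 12.8 and 20.1 FPKM in WT against 23.9, 22.5 and 19.9 FPKM in Gde2KO. The means were 17.3 ± 3.99 and 22.1 ± 2.02 FPKM (SD, n = 3 each), a 1.30-fold ratio with an interval of 0.934 to 1.80 (limma, unadjusted p = 0.1003, adjusted p = 0.882). The low value of WT replicate 2 went with a short last exon. Its last exon was assembled over 2619 bases, against 7332 and 7342 bases in the other WT libraries, and 60.9% of the counted bases of the gene were covered there. The mean level of exon 23 was 7.45 FPKM in that library and 19.4 to 24.9 FPKM in the others, as deposited, while exons 8 and 9 stood at 21.7 FPKM in it. Over coding bases only, an alternative added after the values were seen, Tnr stood at 19.6, 21.3 and 20.4 FPKM in WT against 22.3, 18.9 and 20.2 FPKM in Gde2KO. The means were then 20.4 ± 0.875 and 20.4 ± 1.71 FPKM, a ratio of 1.002 with an interval of 0.869 to 1.16.

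**Figure D4:**
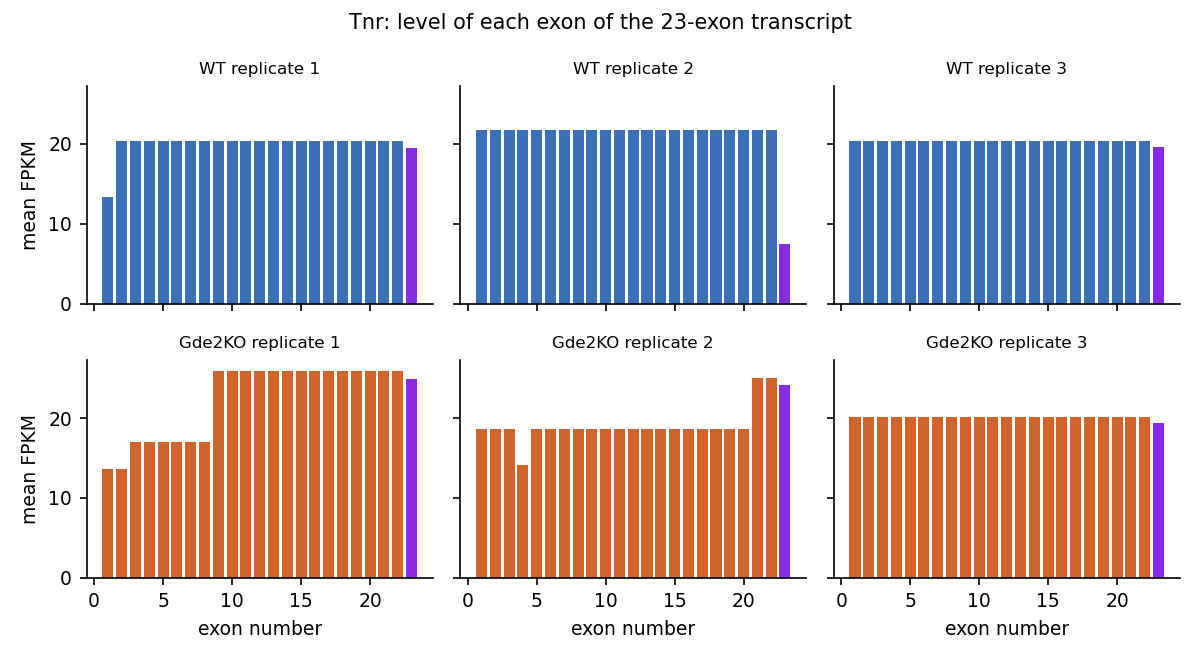
Mean FPKM as deposited (vertical axis) over each exon of the 23-exon Tnr transcript (horizontal axis, exon number) in the 3 WT (blue, top) and 3 Gde2KO (orange, bottom) libraries, with the last exon in purple. WT replicate 2 drops to 7.45 FPKM in the last exon, and in Gde2KO replicates 1 and 2 the level steps up at exon 9 and at exon 21, where separate transcript pieces begin.

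In Gde2KO replicate 1 the assembled pieces of Tnr broke between exons 8 and 9, at 16.99 FPKM before and 25.9 FPKM after the break. In Gde2KO replicate 2 they broke between exons 20 and 21, at 18.6 and 25.1 FPKM. In each of the other 4 libraries exons 2 to 22 stood at a common level. A longer leader exon of Tnr, before the first coding exon, took 19.6%, 22.7% and 18.7% of the competing transcripts in WT and 19.8%, 24.1% and 19.1% in Gde2KO, so the groups interleaved. A form of Tnr that skips a coding exon of 477 bases was assembled in Gde2KO replicate 2 alone of the 6 libraries, at 4.48 FPKM (exact permutation test of the exon over the constitutive exons, p = 0.4).

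Among the 9 tested lecticans, link proteins and tenascins, 6 were higher and 3 lower in Gde2KO by mean, with none passing and a median log2 difference of 0.08. The other lecticans, named here after their values were seen, were Bcan at 70.7 ± 6.02 FPKM in WT against 74.8 ± 2.34 FPKM in Gde2KO, and Acan at 4.99 ± 0.374 and 5.29 ± 0.392 FPKM (SD, n = 3 each). Per length, brevican was therefore the most abundant lectican of the 4 in this tissue, and versican and aggrecan the least.

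C1ql1 (chr11:102939264-102946688, minus strand) encodes a secreted protein of the C1q family, whose known receptor on neurons is the adhesion receptor BAI3. It stood at 14.5, 16.7 and 17.6 FPKM in WT against 16.4, 20.3 and 14.0 FPKM in Gde2KO. Gde2KO replicates 2 and 3 were the highest and the lowest of the 6. The ratio was 1.03 with an interval of 0.790 to 1.34, and its sign turned without WT replicate 1 or Gde2KO replicate 2.

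Matn4 (chr2:164389393-164405160, minus strand) encodes matrilin-4, an adaptor protein of extracellular matrix filaments. It stood at 3.90, 4.87 and 3.74 FPKM in WT against 3.50, 4.54 and 4.59 FPKM in Gde2KO, overlapping throughout, with a ratio of 1.01 (interval 0.778 to 1.31). Both alternative exons of 123 bases were included in all 6 libraries (exact permutation test, p = 0.5 for each). In Gde2KO replicate 3, 2 transcripts with 28.5% of the Matn4 FPKM ran on into the next gene, Slpi, which happened in none of the other libraries.

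Lhfpl3 (chr5:22746059-23275597, plus strand) encodes a membrane protein of the LHFPL family that is used as a precursor marker. It was the steadiest of the 10, at 20.5, 19.2 and 21.2 FPKM in WT against 20.2, 20.6 and 20.2 FPKM in Gde2KO, a ratio of 1.004 with an interval of 0.906 to 1.11. Its first intron spans 355786 bases, and in all 6 libraries the first exon was assembled as a separate piece. Transcripts that hold the 48-base exon, in which the reading frame ends, took 48.4%, 34.7% and 44.1% in WT against 47.8%, 39.8% and 41.5% in Gde2KO, or 42.4 ± 7.03% and 43.0 ± 4.22% (SD, n = 3 each). The library shares interleaved (exact permutation test of the exon over the constitutive exons, p = 0.9), and transcripts with each of the endings shown above were present in all 6 libraries.

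**Figure D5:**
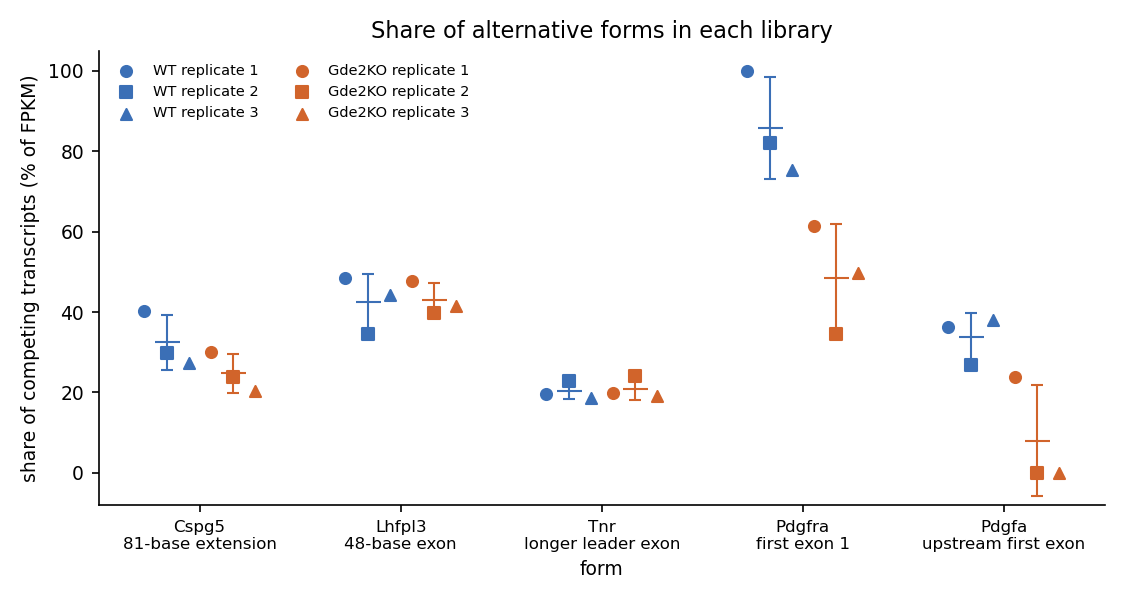
Share of FPKM taken by 5 alternative forms (vertical axis, percent of the competing transcripts of the gene) in the 3 WT (blue) and 3 Gde2KO (orange) libraries, with replicates by symbol and group mean ± SD. The first exon of Pdgfra takes 75.2% to 100% in WT and 34.5% to 61.4% in Gde2KO, and the Cspg5, Lhfpl3 and Tnr forms overlap between the groups. The Pdgfra share was singled out after its values were seen and was not tested. Shares lay lower in Gde2KO without overlap for 3.7% of the 2998 genes compared.

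Genes around the members in the same pathways were read from lists, each given by its counts and the gene of smallest unadjusted p, and none of the genes in these lists passed the adjusted test. The other chondroitin sulphate proteoglycans had 9 genes higher and 10 lower of 19, with Bgn, the small proteoglycan biglycan, at 25.9 ± 1.36 FPKM in WT against 20.9 ± 3.14 FPKM in Gde2KO. The median log2 difference of this list was -0.038, and it was 0.017 without Gde2KO replicate 1 and 0.027 without Gde2KO replicate 3. The receptors that bind these proteoglycans had 1 gene higher and 7 lower of 8, with Rtn4r, the Nogo receptor, at 2.82 ± 0.481 and 2.43 ± 0.117 FPKM. The enzymes of chondroitin sulphate synthesis had 11 higher and 10 lower of 21, with Csgalnact2, which starts and extends the sugar chains, at 2.21 ± 0.0644 and 2.57 ± 0.170 FPKM. Proteases and inhibitors that act on the matrix had 8 higher and 9 lower of 17. Timp4, a metalloproteinase inhibitor, led them at 27.9, 37.3 and 31.6 FPKM in WT against 41.1, 42.6 and 42.7 FPKM in Gde2KO, a log2 difference of 0.39 (limma, unadjusted p = 0.0145, adjusted p = 0.882). The hyaluronan genes had 1 higher and 4 lower of 5, with the hyaluronan receptor Cd44 at 3.80 ± 0.401 and 3.22 ± 0.425 FPKM. The C1q-like, matrilin and LHFPL families had 7 higher and 4 lower of 11, with Lhfp at 12.8 ± 0.906 and 14.4 ± 0.250 FPKM.

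The list of other precursor genes had 12 higher and 23 lower of 35 and a median log2 difference of -0.06, which was 0.01 without Gde2KO replicate 3, whose summed level for the list was 796 FPKM against 970 to 1033 FPKM in the other libraries. Susd5, a precursor marker with a sushi domain, was at 2.15, 2.42 and 2.15 FPKM in WT against 2.51, 2.66 and 3.11 FPKM in Gde2KO (limma, unadjusted p = 0.0390, adjusted p = 0.882). Newly formed oligodendrocyte markers had 7 higher and 5 lower of 12, with Enpp6 at 16.6 ± 2.41 and 19.1 ± 0.273 FPKM. Mature oligodendrocyte markers had 9 higher and 5 lower of 14, with Opalin at 87.5 ± 5.54 and 75.1 ± 3.64 FPKM, and Mbp was listed at 0 under this measure. Astrocyte markers had 7 higher and 5 lower of 12, with Aldoc at 995 ± 51.9 and 713 ± 107 FPKM, and neuronal markers 4 higher and 8 lower of 12, with Eno2 at 299 ± 25.9 and 358 ± 28.7 FPKM. Endothelial markers had 3 higher and 7 lower of 10, with Kdr at 4.32 ± 0.830 and 2.82 ± 0.410 FPKM. Their summed level went the other way, at 179.8 to 212.5 FPKM in WT against 209.4 to 225.0 FPKM in Gde2KO, with overlap. Microglial markers had 6 higher and 4 lower of 10, with Csf1r at 20.5 ± 0.784 and 22.3 ± 0.406 FPKM. Schwann cell markers had 3 higher and 4 lower of 7, with Cdh19 at 4.94 ± 0.747 and 6.19 ± 1.22 FPKM. The median log2 difference of the Schwann cell list was -0.19, and it was 0.41 without Gde2KO replicate 1 and 0.21 without WT replicate 3. In the fibroblast and meningeal list the gene of smallest p was Slc6a13, at 2.96 ± 0.410 and 1.81 ± 0.543 FPKM. None of these passed after adjustment (limma), and errors are SD with n = 3 in each group.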

How the data were processed

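Each deposited file is the Cufflinks assembly of 1 library, with an FPKM and its interval per transcript, made by the authors; gene names come from GENCODE vM21. Per the submitters' processing notes, TopHat2 2.1.1, Cufflinks 2.2.1 and Cuffdiff 2.2.1 were used with mm10. The members and lists were chosen with earlier results of these data known.

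Here, transcripts of at least 200 exonic bases were assigned to the annotated gene whose exons they overlap most on its strand. Those with no strand (13.1% to 14.1%) counted where no opposite-strand exon lay. For gene levels, the FPKM of all transcripts covering a counted base was summed there and averaged over the gene. Counted bases were exonic, in no other gene of that strand and assembled in at least 3 of 6 libraries. Median-of-ratios scaling divided the libraries by 0.989 to 1.04. Values of exons, forms and pieces are as deposited, unscaled. The test used limma 3.58.1 (R 4.3.3; log2(FPKM + 0.1), trend and robust moderation, two-sided) over the 12894 genes with 200 or more counted bases and a mean of 1 FPKM or more, adjusted by Benjamini-Hochberg at a threshold of 0.05. Fold changes are on that scale, which understates the change of low genes. The scripts were tested on simulated data. Alternative exons were tested by exact permutation. Named genes are the 10 members, Gdpd5 and the gene of smallest p in each list, and others are said to be chosen afterwards. A gene listed at 0 can be a failed assembly. 1 list entry matched no annotated gene.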

Additional observations from a re-analysis of the deposited data

How the results depend on the processing

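None of the 10 genes passed the threshold in any of 218 recomputations, and the smallest adjusted p was 0.784. The number of genes past the threshold among all tested, 15, was 4 with a pseudocount of 0.01, 25 with no filter on low values, 1 with a mean FPKM of at least 5, 4 with zeros treated as missing, 4 over the bases assembled in all 6 libraries (added after seeing the data) and 2 with the replicate block. Leaving out 1 library at a time gave 10 to 26 genes: 10 without WT replicate 1, 26 without WT replicate 2, 24 without Gde2KO replicate 2 and 25 without Gde2KO replicate 3. The split of 5 higher and 10 lower became 7 and 3, 22 and 4, and 13 and 3 without WT replicates 1, 2 and 3, and 15 and 10 with no filter. It became 3 and 17, 5 and 19, and 4 and 21 without Gde2KO replicates 1, 2 and 3. Same-numbered libraries correlated at 0.01, 0.04 and -0.07 in their deviations from the group means, and the other pairs at -0.063 to 0.051. These values showed no pairing by number, but whether libraries of the same number share an origin was not tested. The block changed no call of the 10 genes.

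The direction of 6 genes held throughout. The log2 difference of Ncan ranged from -0.18 to 0.11 and that of C1ql1 from -0.10 to 0.17 over left-out libraries. For Matn4 it was -0.008 over bases assembled in any library, -0.02 without normalization and -0.058 to 0.138 over left-out libraries. For Lhfpl3 it was -0.002 as fragments per gene, -0.004 with a mean FPKM of at least 5, -0.028 without normalization, -0.005 with quantile normalization, -0.009 over coding bases, -0.042 over bases in all 6 libraries and -0.034 to 0.037 over left-out libraries. Adding transcript pieces in a plain sum gave 0.57 for Pdgfra, 0.73 for Vcan, 0.75 for Tnr and -0.29 for Ncan. Of the tested exons, 3 turned sign with 1 library left out, in their level relative to the constitutive exons: the difference of 1.40 percentage points for Vcan exon 8 ranged from -3.36 to 6.95, that of 4.38 for Vcan exon 7 from -1.80 to 7.47 and that of -1.63 for the Lhfpl3 exon from -5.93 to 1.66. Of 396 recomputed list medians 26 moved by more than 1 SD. Those that moved without Gde2KO replicate 1 were of the proteoglycan receptor, other chondroitin sulphate proteoglycan, chondroitin sulphate synthesis, neuron, microglia and Schwann cell lists. The cause was not tested for any of these changes.

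With 3 libraries a group and 17.1 to 248 reads per base, differences inside the intervals given in the report remain compatible with these values. The intervals are not detection limits. The interval of Pdgfd, 1.183 to 1.855, left out 1, and the gene still did not pass (limma, adjusted p = 0.882). Assembly breaks and unassembled ends were a limit for Tnr, Cspg5, Vcan and Pdgfra.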
